A study of Mus musculus with 2 samples.

Results

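The regions described here are the KDM4A peaks that stood in the deposited list of control cells but not in the list of GPS2-depleted cells, and whose reads were placed uniquely in the genome. They were chosen in 3 steps. Overlapping peaks (1 bp or more in common) were joined across the lists, joined peaks on chromosomes 1 to 19 and X made only of control peaks were kept, and of these the ones with at least 50% of reads of high mapping quality (30 or more) were the members. This left 415 members, out of 760 such joined peaks of the control list only and 1910 joined peaks in all. They took in 423 of the 1657 peaks of the control list. The control list was called on the control reads, and absence from the other list rests on the other library's reads, so the read numbers of both libraries had a part in choosing the members and are given as a description, with no test.

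The series mapped KDM4A by chromatin immunoprecipitation and sequencing (ChIP-seq) in 3T3-L1, a mouse fibroblast-like preadipocyte line that becomes adipocytes under a hormone mixture. All cells were transfected and then induced to differentiate, 1 library from cells that received a control siRNA (siCTL) and 1 from cells that received siRNAs specific for GPS2 (siGPS2). There was 1 library per group and no input library, so no difference below has a replicate check and no p-value is given. The amount of GPS2 or KDM4A left in the cells was not analysed here. The series title and design ask whether KDM4A at its genomic sites depends on GPS2.

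KDM4A, also called JMJD2A, is a demethylase that takes methyl groups off lysines in the tail of histone H3. Marks of this kind are associated with closed chromatin and with transcribed gene bodies, and their removal is one of the steps by which regulatory DNA can be opened. GPS2 is a small subunit of the NCoR/SMRT corepressor complexes. PPARG, the nuclear receptor named in the series title, is the main transcription factor of adipocyte differentiation. In ChIP-seq a bound protein is seen as a pile of reads, with plus-strand reads starting on one side of the site and minus-strand reads on the other. Nearest genes, promoters and sequences of the members were not analysed here, because the files use build mm8 and no mm8 genome or gene annotation was used.

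The siCTL library held 6559860 distinct reads (1 per position and strand) and the siGPS2 library 4940261. High mapping quality was reached by 83.7% of siCTL and 83.3% of siGPS2 distinct reads. Reads carry no molecular identifiers. With 1 library per group, all intervals below cover counting error only and compare these 2 libraries, not the 2 conditions.

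The members were small piles of siCTL reads. Within 150 bp of the centre a member held a median of 5 distinct siCTL reads, from 0 to 20, and a median of 2 siGPS2 reads, from 0 to 17. Of the 415 members, 287 had 3 to 6 siCTL reads at the centre, 94 had 7 or more and 34 had 2 or fewer. In the siGPS2 library 279 members had 2 or fewer reads there, of which 59 had none, and 33 had 5 or more. The ranges of the libraries overlapped widely. In RPM, reads per 1000000 distinct reads of the library, the centre was higher in siCTL in 347 members and higher in siGPS2 in 68.

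**Figure D1:**
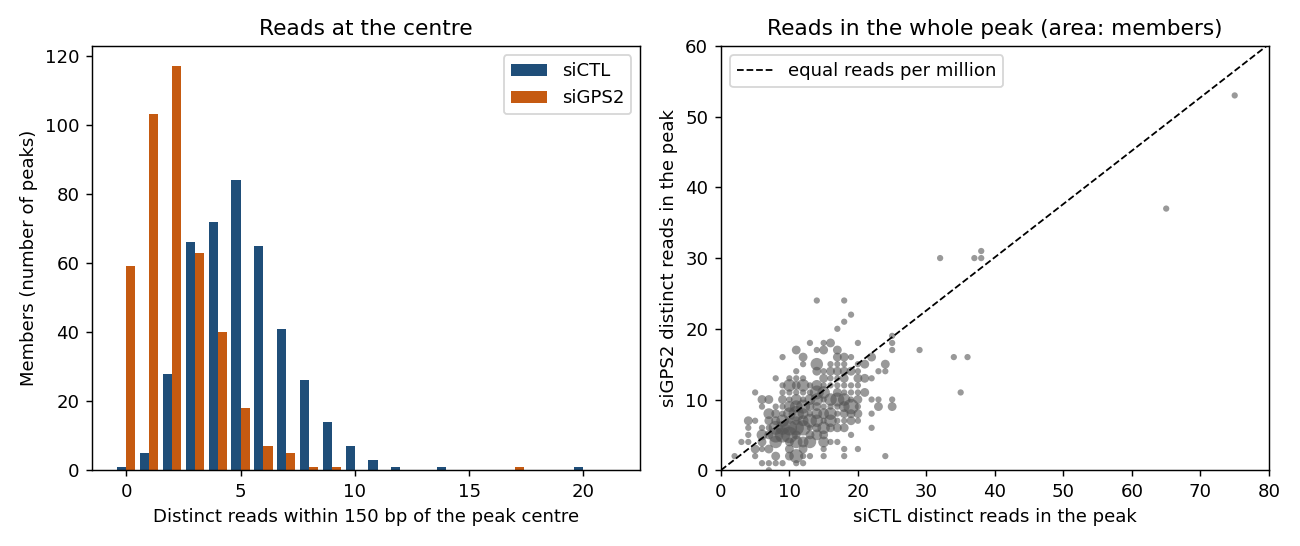
Left, number of members by distinct reads within 150 bp of the peak centre in the siCTL (blue) and siGPS2 (orange) libraries. Right, distinct reads in the whole peak in each library, with the dot area giving the number of members and the dashed line equal RPM. The siCTL bars centre on 5 reads and the siGPS2 bars on 2, and a single member lies beyond 70 siCTL reads.

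Over the whole peak the libraries were closer. Of the members, 408 were 2000 bp wide and 7 were joined from several control peaks, the widest spanning 4860 bp. A member held a median of 13 siCTL reads, from 2 to 75, and 8 siGPS2 reads, from 0 to 53. Windows of 2000 bp more than 10 kb from any joined peak, weighted to the members' chromosomes and held to the same mapping quality share, held 5.72 siCTL and 4.32 siGPS2 reads on average. Whole-peak RPM was higher in siCTL in 277 members and in siGPS2 in 138.

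Read density around the members had a narrow part, which differed between libraries, and a broad part, which hardly did. Within 150 bp of the centre the summed reads were 2127 in siCTL and 887 in siGPS2, a ratio of siGPS2 over siCTL in RPM of 0.554 (95% exact conditional interval 0.511 to 0.599). From 151 to 500 bp away the reads were 1707 and 1391, a ratio of 1.08 (1.01 to 1.16). From 501 to 1000 bp the ratio was 1.01 (0.941 to 1.08), from 1001 to 2000 bp it was 0.998 (0.947 to 1.05), and 2000 to 10000 bp away it was 1.03 (1.01 to 1.04). The summed whole-peak ratio was 0.862 (0.827 to 0.898), from 5829 and 3782 reads. Among those 5 bands the interval lay below 1 only in the one at the centre, where the siCTL list had placed its peaks, and it lay above 1 from 151 to 500 bp and in the surroundings. With members held to a share of 90% the ratio from 151 to 500 bp was 1.07 (0.981 to 1.17), an interval that reached 1.

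Both libraries stood above their surroundings at the members. Against reads 2000 to 10000 bp away, the siCTL density within 150 bp of the centre was 4.70 times higher (95% interval 4.49 to 4.91), and the siGPS2 density was 2.54 times higher (2.37 to 2.71). The members were taken from places absent from the siGPS2 list, a choice that lowers siGPS2 reads at the centre. The shoulders from 151 to 500 bp stood 1.62 times (1.54 to 1.70) above the surroundings in siCTL and 1.71 times (1.62 to 1.81) in siGPS2. From 501 to 1000 bp the values were 1.28 times (1.22 to 1.34) and 1.26 times (1.19 to 1.33), and from 1001 to 2000 bp they were 1.08 times and 1.06 times. A mound of about the same height, reaching at least 1000 bp to each side, was therefore present in both libraries. Whether the mound is there without the antibody was not tested.

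**Figure D2:**
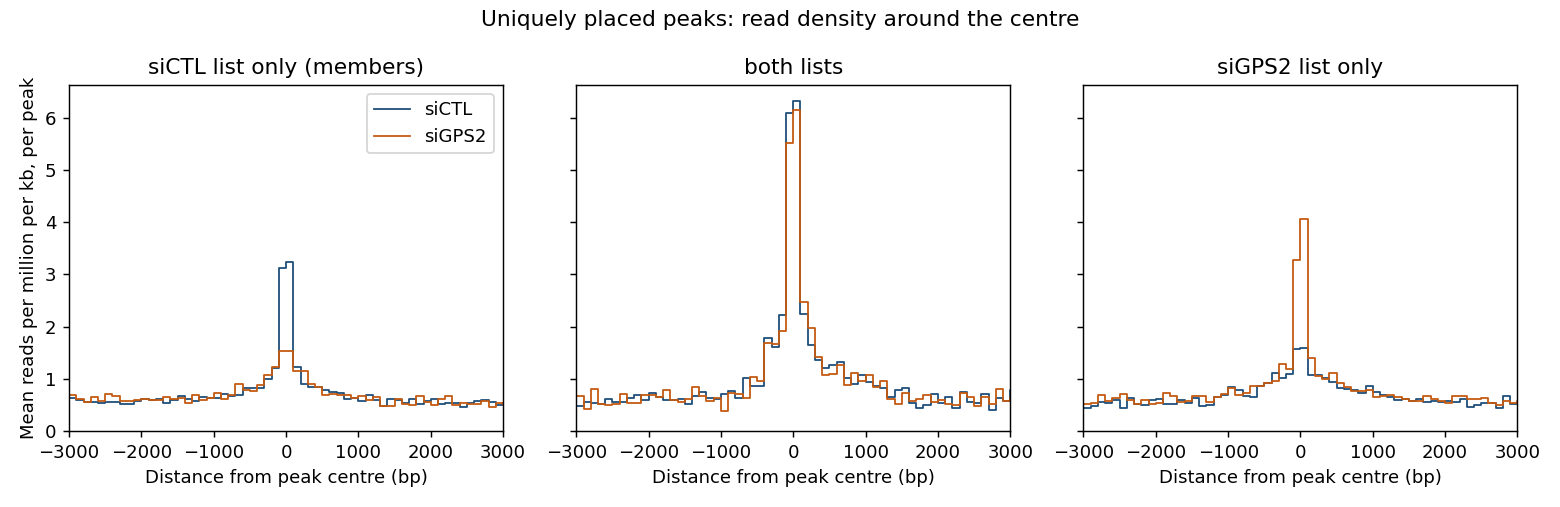
Mean RPM per kb and peak, in bins of 100 bp by distance from the peak centre, for siCTL (blue) and siGPS2 (orange) reads at uniquely placed peaks of the siCTL list only (415 members), of both lists (119) and of the siGPS2 list only (255). At the members the siCTL line is above the siGPS2 line near the centre and the lines run together beyond it. The peaks of the siGPS2 list only show the same picture with the libraries exchanged.

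The uniquely placed peaks of the siGPS2 list only mirrored the members. Over those 255 peaks the centre held 720 siCTL and 1110 siGPS2 reads, a ratio of 2.05 (1.86 to 2.25), while the shoulders from 151 to 500 bp had a ratio of 1.04 (0.957 to 1.14). The siGPS2 centre density was 5.08 times (4.77 to 5.40) that of the surroundings and the siCTL density 2.61 times (2.41 to 2.81), against 4.70 and 2.54 times for the own and the other library at the members. The 119 uniquely placed peaks of both lists had 7.41 times (6.97 to 7.88) in siCTL and 6.85 times (6.36 to 7.36) in siGPS2, with a centre ratio of 0.939 (0.858 to 1.03). Members had fewer siCTL reads at the centre, 5.13 on average, than peaks of both lists, with 9.81. Each list was chosen on its own library's reads, so these class values are descriptions.

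The strands of the reads are described next. The siCTL reads are those on which the peaks were called and centred, so their arrangement around the centre is part of that choice and supports nothing. In siCTL, 486 plus-strand reads began in the 50 bp before the centre and 139 in the 50 bp after it. The minus strand was the reverse, with 94 reads before and 415 after. In siGPS2 the same pattern was weaker, with 126 plus-strand reads before and 76 after, and 63 minus-strand reads before and 104 after. Within 150 bp of the centre, 71.5% of siCTL plus-strand reads lay before it and 74.5% of minus-strand reads after it. The siGPS2 shares were 58.0% and 56.7%. The median plus-strand and minus-strand positions were −23 and 32.5 bp in siCTL and −16 and 15 bp in siGPS2. The centres are those of siCTL peaks absent from the siGPS2 list, so nothing is read from the weaker siGPS2 pattern. At peaks of the siGPS2 list only, the same shares were 66.5% and 76.9% in siGPS2 and 60.2% and 60.3% in siCTL.

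Pairs of reads showed how far the 2 strands stood apart. Within 300 bp of the centre, pairs in which the minus-strand read lay up to 150 bp after the plus-strand read (the order that the ends of 1 fragment have) numbered 1847 in siCTL. Pairs with the opposite order numbered 1168, a quotient of 1.58. The most siCTL pairs were 50 to 100 bp apart. At places 5000 bp to each side the siCTL quotient was 0.997, from 313 and 314 pairs. In siGPS2 the quotient at the members was 1.07, from 459 and 428 pairs, and 1.18 at the places 5000 bp away, from 188 and 159. In siGPS2 the quotient at the members was thus not above that of the surroundings, and no interval was taken for it. The same was true in siCTL at peaks of both lists, so the quotient cannot show that a strand order is absent. Peaks of the siGPS2 list only had 1.58 in siGPS2 and 1.20 in siCTL, with 1.12 and 1.21 at the places 5000 bp away, and peaks of both lists had 1.40 in siCTL and 1.501 in siGPS2, with 1.41 and 1.40 at the places 5000 bp away.

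**Figure D3:**
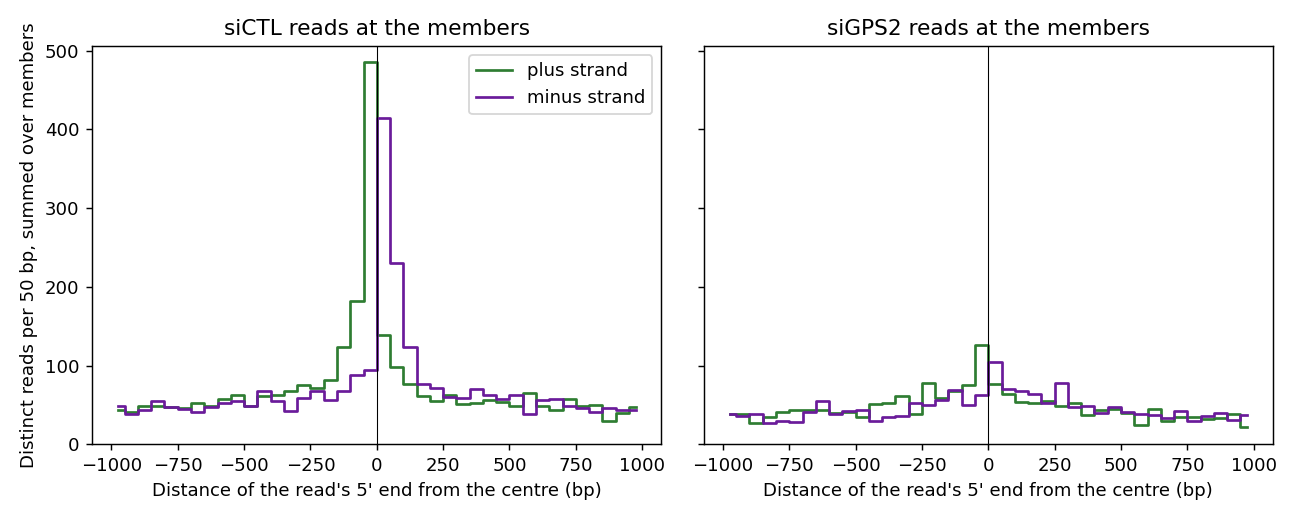
Distinct reads per 50 bp summed over the 415 members, by distance of the read's 5 prime end from the peak centre, for plus-strand (green) and minus-strand (purple) reads of siCTL (left) and siGPS2 (right). The siCTL strands peak on opposite sides of the centre at 486 and 415 reads, and the siGPS2 strands at 126 and 104.

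The siGPS2 reads at the members were gathered near the centre more often than elsewhere. The densest 301 bp of siGPS2 reads in the 2000 bp of a member lay within 150 bp of the centre in 223 of 415 members (53.7%, 95% exact binomial interval 48.8 to 58.6%). In 830 windows placed 5000 bp to each side the same was true of 285 (34.3%, 31.1 to 37.7%). For siCTL reads the figures were 352 of 415 members (84.8%, 81.0 to 88.1%) and 283 of 830 windows (34.1%, 30.9 to 37.4%). Where stretches tied for densest, any of them within 150 bp of the centre was enough, which raises these shares where reads are few.

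Some members held as many siGPS2 reads as listed siGPS2 peaks did. The 388 uniquely placed peaks of the siGPS2 list had a median of 4 siGPS2 reads within 150 bp of their centre, and 2 at their 10th percentile. Of the members, 73 (17.6%, 14.0 to 21.6%) reached the median of that list and 253 (61.0%, 56.1 to 65.7%) reached its 10th percentile. Both levels are low counts. The listed siGPS2 peaks ran from 0 to 85 reads, and the members' surroundings averaged 0.842 siGPS2 reads per 301 bp. The share of places outside peaks that reach 2 or 4 reads is not given here. The member with the most siGPS2 reads at the centre, 17 against 20 in siCTL, was at chr2:77751517-77753516. Next were the members at chr8:109919460-109921459 with 9 siGPS2 reads and chr2:177501731-177503730 with 8. All 3 lay above the median of 4 and were not in the siGPS2 list.

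Few members had reads enough for a peak-by-peak comparison. A peak was called lower or higher in siGPS2 if the libraries together gave it 30 reads or more, the fold was 1.5 or more and the interval left out a ratio of 1. Of the 415 members, 79 had 30 reads or more, of which 1 was lower and 1 was higher. Over all 782 joined peaks of chromosomes 1 to 19 and X with 30 reads or more, 1.53% were lower and 2.81% higher, so the members' share of 1.27% in each direction was near or under the background. Without a minimum of reads, the interval lay below 1 in 15 members (3.61%) and above 1 in 1 member (0.241%), beside 2.12% and 3.02% of all 1886 joined peaks. The members were chosen by that contrast and nothing is read from these shares. Of those 15 members, 14 had fewer than 30 reads, and with a minimum of 20 reads 8 of 250 members were called lower and 1 higher.

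The called member that was lower lay at chr13:12821708-12823707, with 35 siCTL and 11 siGPS2 reads (5.34 and 2.23 RPM), a ratio of 0.417 (0.191 to 0.841). Its centre held 9 and 2 reads, and 76.1% of its reads were of high mapping quality. The called member that was higher, although of the siCTL list, lay at chr8:109919460-109921459 with 14 and 24 reads, a ratio of 2.28 (1.13 to 4.76). Its centre held 3 siCTL and 9 siGPS2 reads, all of its reads were of high mapping quality, and thinning siCTL to the depth of siGPS2 ended the call.

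The other members with the lowest ratios had intervals that reached 1. Those at chr6:149057326-149059325 and chr8:49171630-49173629 each had 25 siCTL and 9 siGPS2 reads, a ratio of 0.478 (0.196 to 1.06). The latter held 10 siCTL reads and 1 siGPS2 read at its centre. At chr15:39773100-39775099, with 25 and 10 reads, the centre held 11 and 2. The remaining 6 of the lowest 10 had ratios of 0.483 to 0.604 and lay on chromosomes 8 (2 members), 19 (2 members), 13 and 15. At the other end, after the called member, came chr4:3162826-3164825 with 13 and 18 reads, a ratio of 1.84 (0.852 to 4.08), and chr8:49488151-49490150 with 18 and 24, a ratio of 1.77 (0.921 to 3.46). The other 7 of the highest 10 had ratios from 1.505 to 1.61, with all 7 intervals reaching 1.

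**Figure D4:**
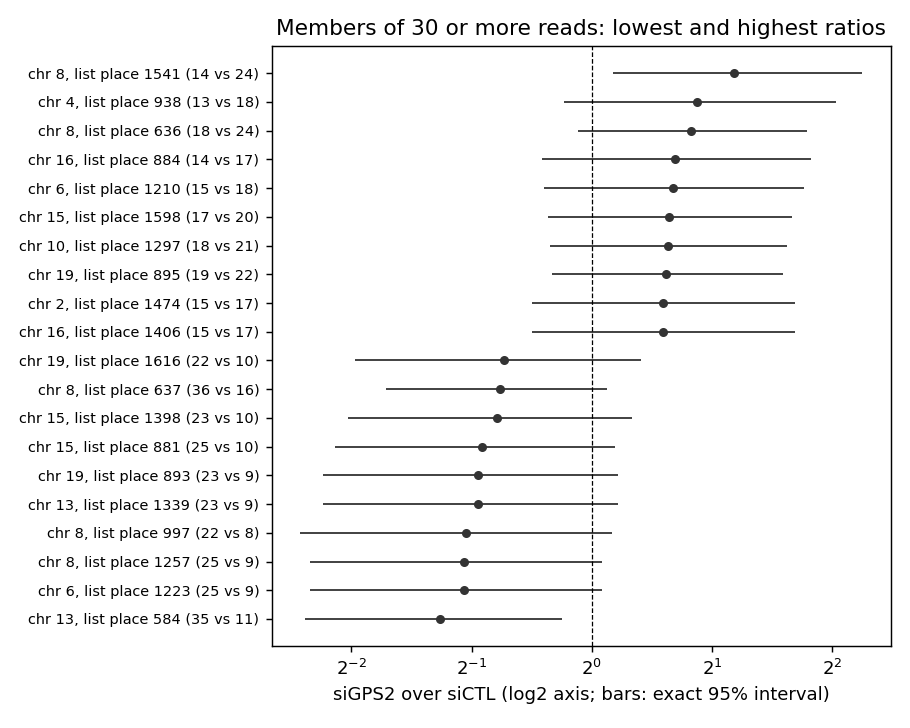
Ratio of siGPS2 over siCTL RPM with its 95% exact conditional interval, on a log2 axis, for the 10 lowest and 10 highest members with 30 reads or more, named by chromosome and place in the siCTL list, with siCTL and siGPS2 reads in brackets. The intervals of the lowest and of the highest member leave out 1, and the other 18 reach it.

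Among members with fewer than 30 reads, that at chr13:66718058-66720057 had 24 siCTL reads and 2 siGPS2 reads, a ratio of 0.111 (0.0127 to 0.446). The member at chr14:101215306-101217305 had the same ratio from 12 reads and 1 read, with an interval of 0.00259 to 0.748. The centre of the chromosome 13 member held 9 siCTL reads and no siGPS2 read, and 65.4% of its reads were of high mapping quality. It lay 3.86 kb from another joined peak, where reads of high mapping quality were 0.144 times as dense as the genome median. At chr12:72048403-72050402 there were 18 and 2 reads (0.148, 0.0166 to 0.616). The member at chr8:71722135-71724134 had 20 and 3 (0.199, 0.0379 to 0.672), but just 3 siCTL reads and none of siGPS2 at its centre. At chr10:36952192-36954191 the 7 reads were all of siCTL, with an upper limit on the ratio of 0.921. These were singled out after their values were seen.

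Of the 10 members with most reads, 1 had an interval that left out 1, the member on chromosome 13 called lower above. The largest, at chr2:77751517-77753516, held 75 siCTL and 53 siGPS2 reads (11.4 and 10.7 RPM), a ratio of 0.938 (0.647 to 1.35). It lay in a stretch where reads of high mapping quality were 15.7 times as dense as the genome median. The member at chr1:189901224-189903223 held 38 and 30 reads (1.05, 0.627 to 1.74) in a stretch of 6.06 times the median. Those were the 2 members in surroundings of 5 times the median or more. A pair on chromosome 2, at 177501731 and 177515629, held 37 and 30 reads and 38 and 31 reads, in surroundings of 2.58 and 2.43 times the median. At chr8:85752625-85754624, in surroundings of 1.05 times the median, there were 32 and 30 reads, with 11 and 4 at the centre. At chr4:146178370-146183229, joined from 3 control peaks, there were 65 and 37 reads (0.756, 0.491 to 1.15), with 8 siCTL reads and 1 siGPS2 read at the centre. The others included chr8:63523744-63525743 with 36 and 16 reads (0.590, 0.306 to 1.09), chr4:146274848-146276847 with 34 and 16 (0.625, 0.322 to 1.16) and chr8:8659722-8662505 with 29 and 17 (0.778, 0.401 to 1.46).

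The members came late in the siCTL list. Their median place was 1273 of 1657, the first was at place 182, and 6 stood among the first 500 peaks. Of the list, members made up 1.20% up to place 500, 20.6% from place 501 to 1000 and 47.8% from place 1001 on. The list has no score. It runs through 117 blocks, within each of which the peaks are in order of chromosome name and start. The 18 blocks of 20 peaks or more held 394 of the members, the largest being places 1094 to 1293 with 200 peaks and 96 members. A place inside one of these 18 blocks was therefore not taken to hold strength. The small blocks, down to 1 peak, cannot show whether the list was sorted there. The first 10 members ran from the chromosome 2 peak at place 182 to chr6:3184640-3186639 at place 559, and included chr11:120747987-120749986 with 13 and 7 reads, chr1:79654094-79656093 with 14 and 10, chr16:74662259-74664258 with 6 and 3, and chr5:38326451-38328450 with 13 and 2.

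The centre ratio was set out in 3 stretches of the list, whose limits fall inside blocks, so that members of 1 block were partly divided by chromosome order. For the 54 members in the first 829 places it was 0.531 (0.437 to 0.643), for the 138 at places 830 to 1243 it was 0.533 (0.463 to 0.612), and for the 223 after that it was 0.577 (0.515 to 0.645), with intervals that overlap. Median siCTL reads at the centre were 7, 5 and 5, and median siGPS2 reads 2, 2 and 2.

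A few members of the siCTL list had hardly any siCTL read at the centre. There were 6 with 0 or 1, among them chr3:41661365-41663364 with no siCTL read and 4 siGPS2 reads at the centre, and chr3:103367149-103369148 with 2 reads of each library in the whole 2000 bp. At the other end 13 members had 10 or more, such as chr17:27903976-27905975 with 14 siCTL reads and 5 siGPS2 reads at the centre, and chr6:69460450-69462449 with 12 and 4.

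Unique placement varied among the members. All reads were of high mapping quality in 163 members, 90% or more were in 265, and 54 had a share under 60%. The 15 members at exactly 50% held 4 to 34 reads. Just outside, at shares of 48.0 to 49.1%, were 4 joined peaks of the siCTL list, among them chr8:19852755-19855793 with 109 siCTL and 92 siGPS2 reads and chr17:3033384-3035383 with 64 and 44, which held more reads than most members. The centre ratio was 0.536 (0.470 to 0.610) for the members with all reads of high quality, 0.553 (0.470 to 0.648) at 90 to 100% and 0.573 (0.503 to 0.651) at 50 to 90%. These intervals overlap. Centre enrichment in siCTL was 5.06 (4.70 to 5.44), 4.71 (4.30 to 5.15) and 4.36 (4.05 to 4.69) in the same order, and in siGPS2 it was 2.57, 2.51 and 2.52. The 345 other joined peaks of the siCTL list only, with less unique reads, had a centre ratio of 0.680 (0.632 to 0.733), nearer to 1 than the members. Both groups were chosen by the same contrast, so nothing is read from this gap. Their surroundings also differed, with 1.53 siCTL reads per 301 bp at those peaks and 1.09 at the members.

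Members were spread unevenly over the chromosomes. Chromosome 8 held 77 of them (18.6%) with 6.94% of the siCTL reads of high mapping quality. Then came chromosome 6 with 41, chromosome 11 with 40, chromosome 2 with 34, chromosome 15 with 28 and chromosome 17 with 27. Chromosomes 7, 12 and X held 7 each and chromosome 18 held 6. Per Mb between the first and the last read there were 0.597 members on chromosome 8, 0.337 on chromosome 11 and 0.0431 on chromosome X. Chromosome 8 also held 19 uniquely placed peaks of both lists (15.97% of them) and 56 of the siGPS2 list only (21.96%). Its high share was therefore not particular to the members.

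The order of the chromosomes followed their read density. Reads of high mapping quality per Mb in siCTL numbered 1043 on chromosome X, the fewest, and 2947 on chromosome 8, the most, and the 8 densest chromosomes (8, 11, 19, 15, 6, 17, 10 and 2) held 273 of the 415 members (65.8%) with 45.0% of those reads and 37.0% of the span. Across the 20 chromosomes Spearman's correlation between members per Mb and reads per Mb was 0.83, and Pearson's was 0.79. It was 0.81 without chromosome X and 0.81 without chromosome 8. These are descriptions over chromosomes of the same library that also chose the peaks. With the read density of the siGPS2 library the value was 0.83. Uniquely placed peaks of the siGPS2 list only had 0.93 and those of both lists 0.69. Chromosome 10 went against the order, with 9 members at 2403 reads per Mb.

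**Figure D5:**
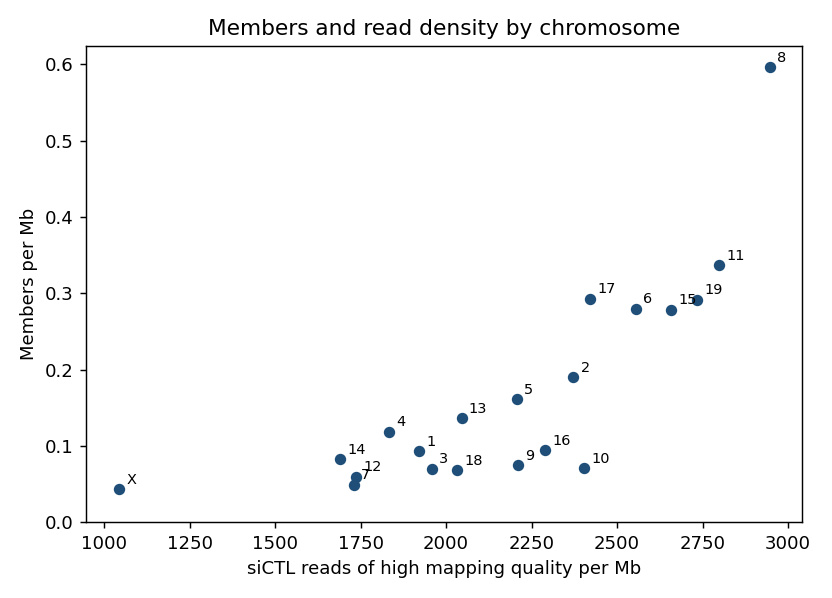
Members per Mb against siCTL reads of high mapping quality per Mb, 1 point per chromosome, labelled by its name. Chromosome 8 lies highest at 0.597 members per Mb, the dense chromosomes 11, 17, 19, 6 and 15 follow, and chromosome 10 lies low for its read density.

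The same held on a smaller scale. In the 100 kb around a member, leaving out the central 20 kb, siCTL reads of high mapping quality had a median density of 1.36 times the genome median (10th to 90th percentile of members 0.888 to 1.89). Relative to the median of the member's own chromosome it was 1.18 times. It was above the genome median at 338 members (81.4%), where 49.8% of all 100 kb bins are. In siGPS2 reads the median was 1.43 times, and 342 members (82.4%) were above. Peaks of the siGPS2 list only lay at 1.48 times in siCTL, peaks of both lists at 1.31 times, and the less uniquely placed peaks of the siCTL list only at 0.604 times. The rule kept members for their share of reads of high mapping quality and set the less unique peaks apart by it. All 100 kb bins were counted without that rule, so these values are descriptions. The part of surrounding read density, and of the number of copies of a chromosome in these cells, in where the members lie was not tested.

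Members were mostly isolated. The median distance from a member to the nearest other joined peak was 317 kb and to the nearest other member 1186 kb. Within 100 kb of another joined peak were 118 members (28.4%, exact binomial interval 24.1 to 33.0%), where 9.43% of the span of the chromosomes lies that near a joined peak. The nearest peak was another member for 41 of them, a uniquely placed peak of the siGPS2 list only for 30 and one of both lists for 11, and for the other 36 it was a peak with fewer unique reads.

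Close neighbours among the members were few. The 20 members within 20 kb of another formed 10 pairs, the closest at chr4:3162826-3164825 and chr4:3164936-3166935, with centres 2.11 kb apart. A pair 3.27 kb apart on chromosome 8 showed opposite balances at the centre. The member at chr8:46432792-46434791 had 9 siCTL reads against 3, and that at chr8:46436063-46438062 had 2 against 5. Over the whole peak they held 17 and 16 reads, and 20 and 8. Another chromosome 8 member, at 13889280, with 20 and 13 reads, lay 6.58 kb from one with 14 and 10.

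Runs of 3 members, each within 100 kb of the next, were found at 4 places. At chr4:146178370-146285082 the 3 members held 110 siCTL and 61 siGPS2 reads. Each had 1 siGPS2 read at its centre, against 8, 9 and 6 siCTL reads, and their median share of high mapping quality was 59.8%, near the limit of the rule. At chr13:12777577-12833445, which holds the member called lower, the reads were 75 and 30, and the surroundings were 2.15 times the genome median. At chr15:100932765-100974675 the reads were 47 and 27, all of high mapping quality in the median member. At chr17:34861513-34930863 they were 53 and 43, and the median share of high mapping quality was 54.3%, nearer still to the limit.

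Read names show 1 run and lane for both libraries, and the parts of the flow cell (tiles) could be compared, although tiles divide a library and do not repeat it. In each of the 14 tiles with over 100000 reads in both libraries, the centre ratio over the members was below 1, from 0.486 to 0.630. The choice of members lowers this ratio, and tiles split the reads behind that choice, so their accord supports nothing. Members took in 0.0773 to 0.0957% of a tile's siCTL reads and 0.0689 to 0.0863% of its siGPS2 reads.

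Few positions were found in both libraries. Of the 3782 distinct siGPS2 read positions in the members, 30 (0.793%, 0.536 to 1.13%) were also siCTL positions on the same strand. The share was 1.08% (0.741 to 1.51%) at peaks of the siGPS2 list only and 6.63% (5.62 to 7.75%) at the more deeply covered peaks of both lists.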

How the data were processed

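For both libraries the authors deposited reads placed on the genome and a list of peaks. The submitters' processing notes name Bowtie, HOMER and mouse build mm8; roles, settings and versions are not given in the sources used here. The deposited reads carry 1 measured column, a mapping quality score of each read, and the deposited peak lists hold other values only, a start and an end per peak, with no score, for each library apart. Starts were taken to count from 0 and are printed counting from 1.

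Lines cut short (3 in siCTL, 6 in siGPS2) were left out, 1 read per chromosome, 5 prime position and strand was kept, and 5 prime ends were counted with numpy 2.4.6 and pandas 2.3.3 under Python 3.11.15. Ratios are siGPS2 over siCTL per distinct read of the library, with exact conditional (Clopper-Pearson) 95% intervals from scipy 1.17.1. Shares carry exact binomial 95% intervals. The call rule was tested on simulated data, made by splitting the members' read totals at planted folds with counting error only. That simulation cannot show how the rule acts under variation between libraries or under the choice of members. Since counts per member are small, single members are imprecise. Sums have less counting error, but the choice of members acts on them in full.

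Regions named are the first 10 members in the list, the 10 with most reads, the 10 lowest and 10 highest ratios among members with 30 reads or more, those at the 50% limit and those within 20 kb of each other. Single positions on chromosome 18 are not printed. Other regions were named after their values were seen. The members and all choices were made with earlier results of these data known. The bands beyond 150 bp, the order of the list, the tiles, the dense stretches within peaks and the alternatives that leave out a chromosome, near neighbours or reads of low quality by strand were added after the reads were seen.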

Additional observations from a re-analysis of the deposited data

How the results depend on the processing

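The summed whole-peak ratio of 0.862 stayed within its own interval in reads of high mapping quality (0.870), in all deposited reads (0.862), scaled to background windows (0.860), in the first 829 places of the list (0.829), with peaks joined at 1000 bp of overlap (0.863) and at a share of 90% (0.863). Within 150 bp of the centre it was 0.554. The shoulder ratio of 1.08 ran from 1.07 to 1.10 in 3 alternatives, and at the 90% share its interval reached 1 (0.981 to 1.17). Calls of 1 lower and 1 higher became 8 lower at a minimum of 20 reads (3.20% of members, beside 2.19% of all joined peaks at that minimum). They became 0 higher with siCTL thinned to the siGPS2 depth. Within 150 bp of the centre, where 1 member had 30 reads, they became 0 lower and 0 higher. Centre enrichment in siCTL was 3.54 within 250 bp, 4.92 at a share of 90% and 4.91 without members within 10 kb of another joined peak. In siGPS2 it was 2.33 within 250 bp and 2.36 in the earlier part of the list. The share of members at the siGPS2 list's median was 22.2% in that part, and 5.78% of members lay within 10 kb of a joined peak. In reads of high mapping quality the strand quotient was 1.54 in siCTL and 1.07 in siGPS2. The chromosome correlation was 0.81 without X and 0.81 without chromosome 8. The cause of these shifts was not tested. No paired analysis was possible because there is 1 library per group, and no library could be left out for the same reason. At a median of 13 and 8 reads per member, single ratios are wide.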
